A study of Mus musculus with 6 samples.

Results

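Genes for the proteins of the mitochondrial ribosome were examined in mouse cumulus granulosa cells, the somatic cells that surround the oocyte. The genes are those with a symbol of Mrpl or Mrps followed by a digit, a base mean above 3.3 normalized counts and no pseudogene annotation. This gave 78 genes of the 24982 rows of the authors' deposited table, 49 of the large subunit (Mrpl) and 29 of the small subunit (Mrps). All 78 stood among the 14835 rows with an adjusted p-value, which are called tested genes here, and 0 matching rows were removed as pseudogenes or for a low base mean. The lowest base mean of a member in the authors' deposited table was 132, that of Mrpl43, so no member lay close to the limit.

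The cells came from Kun-Ming mice, an outbred stock, and 6 libraries labelled as poly(A) RNA were made from them. The labels' protocol describes both an RNA library kit and a preparation from amplified cDNA, and does not say which was used for which library. Of these libraries, 3 were labelled control and 3 were labelled Atg5-KD, for cells transfected with short hairpin RNAs against Atg5, a gene needed to form autophagosomes. The titles of the latter read ko, and the treatment label, a knockdown, is followed here. The labels give no age, no account of what the control cells received and nothing that ties the libraries to separate cultures or animals, so the spread behind each p-value is that of these libraries and could be technical. The file pools the libraries into 1 comparison, and values of each library were not analysed here. The columns do not state a direction, and Atg5-KD over control was taken from how the table is named.

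The mitochondrial ribosome translates the few mRNAs of the mitochondrial genome, which encode subunits of the respiratory chain and of ATP synthase. Its RNAs come from mitochondrial DNA, while its proteins are encoded in the nucleus, made in the cytosol and imported. The large subunit forms the peptide bond and holds the exit tunnel, and the small subunit binds the mRNA and decodes it. Some of its proteins have a bacterial homologue and others are found only in mitochondria. The nuclear factors NRF1, GABPA and YY1 are known regulators of genes for mitochondrial proteins.

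The promoters of the members were read first, because a shared promoter sequence is a property the choice of genes did not use. RefSeq windows of 250 bases before to 50 bases after a gene start (build GRCm38.p6) were found for 69 of the 78 members, as 75 windows. Exact matches on either strand were sought to 1 motif each for NRF1, YY1 and GABPA with other ETS factors. The ETS motif was CCGGAAGT, the YY1 motif is the run in capitals in the first 4 sequences that follow, and the NRF1 motif is the run in capitals of Mrpl14 further on, with any base allowed directly after its A. A palindromic NRF1 match reads on both strands, and no match of one motif overlapped a match of another. The NRF1 letters stood in 13 member windows (17.3%), against 9.02% of the windows of all tested genes. The GABPA/ETS letters stood in 12 (16.0%), against 7.30%, and the YY1 letters in 5 (6.67%), against 1.31%. Windows with at least 1 of these motifs were 28 of 75 (37.3%), against 16.6% of the windows of all tested genes. By subunit, the NRF1 letters stood in 10 of 48 large (20.8%) and 3 of 27 small subunit windows (11.1%). The GABPA/ETS letters stood in 8 (16.7%) and 4 (14.8%), and the YY1 letters in 2 (4.17%) and 3 (11.1%). The differences between subunits were not tested. A match is a run of letters and not a measured binding site.

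The 5 members with the YY1 letters are given as 30 bases with the match in capitals, on the strand of the gene and from 5′ to 3′, because this motif had the largest ratio to the share over tested genes. Their build is GRCm38.p6.
Mrpl37 (chr4:107066820-107066849, minus strand): gcacgggcaAAGATGGCGGCgtccaggtag
Mrpl35 (chr6:71823741-71823770, minus strand): gcaggctgcAAGATGGCGGCttccatcttc
Mrps18a (chr17:46111006-46111035, plus strand): gtgcgttccAAGATGGCGGCcctcagggct
Mrps27 (chr13:99344791-99344820, plus strand): gtgcgctccAAGATGGCGGCtcccatggtg
Mrps11 (chr7:78783012-78783041, plus strand, match on the other strand): cctacgggcGCCGCCATCTTtctgtcttcc

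In Mrpl37, Mrpl35, Mrps18a and Mrps27 the match began 12 to 27 bases after the annotated start, and in Mrps11 it began 110 bases before it. These 5 genes did not share a direction. In the authors' deposited table they stood at log2 fold changes of -0.30 for Mrpl37, 0.30 for Mrpl35, -0.02 for Mrps18a, -0.07 for Mrps27 and -0.08 for Mrps11.

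The NRF1 letters are shown for Mrpl12 and Mrpl14, picked after their values were seen because both stood close to the call threshold. The 250 bases before the start of Mrpl12 follow whole, and 30 bases are given for Mrpl14, where the match began 5 bases after the start. In Mrpl12 the match is on the other strand, so its capitals are the reverse complement of the motif.
Mrpl12 (chr11:120484387-120484636, plus strand): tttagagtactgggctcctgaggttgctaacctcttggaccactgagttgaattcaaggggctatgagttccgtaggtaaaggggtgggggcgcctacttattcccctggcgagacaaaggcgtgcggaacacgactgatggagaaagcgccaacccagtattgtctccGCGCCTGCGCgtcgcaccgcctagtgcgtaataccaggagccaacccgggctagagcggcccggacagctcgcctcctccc
Mrpl14 (chr17:45686343-45686372, plus strand): aacccctggcGCGCAGGCGCagcgtgcggg

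Many members also start beside another gene. For 33 of 78 members (42.3%) a protein-coding gene on the other strand started within 1000 bases, against 16.3% of the 14680 tested genes with a position in GENCODE M21. Of these neighbours 32 were tested, and 4 were called, against 20.9% of all tested genes. Mitd1 rose by 0.69 ± 0.19 (SE) in log2 units (Wald adjusted p = 0.00247) in the authors' deposited table while Mrpl30, whose start lies 66 bases away, stood at 0.02 ± 0.15 (SE). Zfp189 rose by 0.65 ± 0.17 (SE) in log2 units (Wald adjusted p = 0.00151) in the authors' deposited table, 83 bases from the start of Mrpl50, which stood at 0.15 ± 0.12 (SE). Wdfy1, beside Mrpl44, was higher at 0.35 (Wald adjusted p = 0.0391), and Apba3, beside Mrpl54, was lower at -0.36 (Wald adjusted p = 0.0156), in the authors' deposited table. The differences between neighbours were not tested.

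Facts of the whole table that bear on the members are these. Atg5 itself did not pass the test, at -0.06 ± 0.14 (SE) in log2 units (Wald adjusted p = 0.822) by the authors' deposited table, so the target gene gave no check of the labels. Among fixed granulosa markers, Inha and Foxl2 were abundant, with base means of 30063 and 1816, whereas Amh and Cyp19a1 were near 0, with 6.07 and 2.34, in the authors' deposited table. Of the 8 granulosa markers 2 were lower, Foxl2 at -0.49 (Wald adjusted p = 1.65e-05) and Nr5a1 at -0.25 (Wald adjusted p = 0.0184) by the authors' deposited table, and their estimated sums were 37728 normalized counts in control and 33789 in Atg5-KD. Summed estimated levels of 8 leukocyte markers were 2090 normalized counts in control and 485 in Atg5-KD, 7 of the 8 were lower and none was at 0, and their part in the members' values was not tested. Of 5 stroma and theca markers 3 were lower (sums of 3493 and 1854 normalized counts), with Cyp17a1 near 0 at a base mean of 0.131 in the authors' deposited table. Oocyte markers summed to 66.6 and 77.8 normalized counts. The ribosomal RNA locus Rn45s took an estimated 1.17% of all normalized counts in control and 17.9% in Atg5-KD. In bulk RNA, fewer cells of a type and less RNA per cell cannot be told apart.

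Base means of the members in the authors' deposited table ran from 132 for Mrpl43 to 999.7 for Mrpl38, a 7.55-fold range, with a median of 466 normalized counts against 329 over all tested genes. Large subunit genes had a median base mean of 515 and small subunit genes 403 in the authors' deposited table. The estimated levels of all members summed to 39280 normalized counts in control and 37749 in Atg5-KD, a log2 ratio of -0.06. As a share of all normalized counts these were 0.3014% and 0.2355%, over a total of all rows, Rn45s included, that was larger in Atg5-KD by 0.30 on the log2 scale. Most of that difference in totals lay in Rn45s. Were the direction of the table the opposite of that taken here, the values of both groups would change places.

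Levels between genes were compared per kb of exon, because a longer transcript yields more fragments. On that scale the members spanned 55.3 to 1730 normalized counts per kb with a median of 339, against 101 over all tested genes. Mrpl33, a short protein of the large subunit, was highest at 1730 per kb, followed in that subunit by Mrpl34 at 992 and Mrpl42 at 958. In the small subunit Mrps21 was highest at 1148 per kb and Mrps34 next at 875. The lowest were Mrpl47 at 55.3 and Mrps25 at 67.3 per kb. The exon length is the union of all basic GENCODE transcripts, so genes with a long alternative end, such as Mrps25 with 6073 bases, have a low value on this scale.

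**Figure D1:**
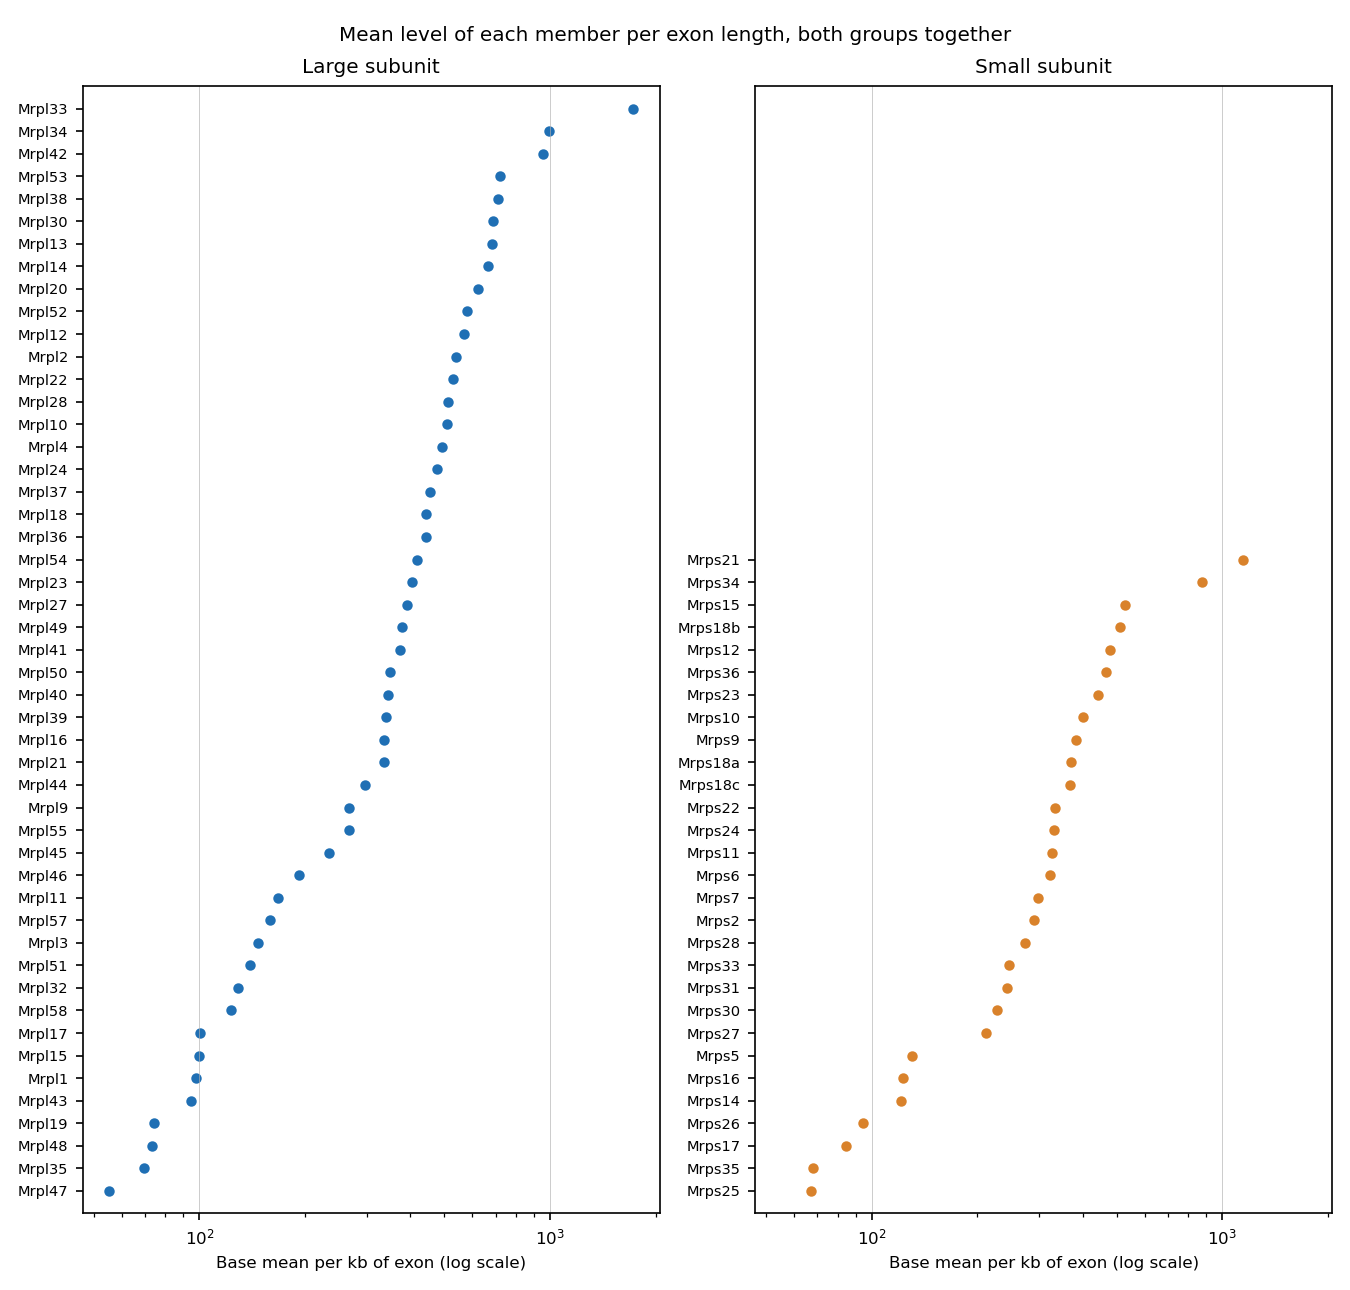
Base mean of each member divided by its exon length in kb, on a log axis, for 49 large subunit genes (left) and 29 small subunit genes (right), as 1 value per gene over all 6 libraries. Levels ran from 55.3 for Mrpl47 to 1730 for Mrpl33, and the medians were 373 per kb in the large and 323 in the small subunit.

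Few members were called in the comparison of Atg5-KD with control. By the authors' deposited table, 2 of 78 members had a Wald adjusted p under 0.05 (2.56%), both lower and both of the large subunit, against 20.9% of all tested genes (10.5% lower and 10.4% higher). Among the 6499 tested genes with a base mean within the members' range, 21.3% were called, and their median standard error, 0.139, was close to the members' 0.138. The median log2 fold change of the members was -0.06, that of all tested genes 0.00 and that of genes in the same range of base mean -0.01.

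On the deposited scale values below 0 were more frequent than values above it. Of the members, 52 (66.7%) lay below 0 and 26 above it in the authors' deposited table, against 49.6% of all tested genes below 0. At an unadjusted Wald p under 0.05, 6 members were lower and 1 higher (8.97%), against 31.5% of all tested genes (15.9% lower, 15.6% higher), going by the authors' deposited table. Other thresholds and adjustments called 26.1% of tested genes at an adjusted p under 0.1, 13.9% under 0.01, 19.5% over every row with a p-value and 21% after centring on the median. Adjusting only over the 11296 rows with a base mean of at least 50 called 2928 of those rows (25.9%). Under these settings 4, 1, 2, 2 and 2 members were called. The standard deviation of the 78 log2 fold changes was 0.15, close to the median standard error of a single member.

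Mrpl4, a large subunit protein with a bacterial homologue, had the largest deposited change. The estimated means were 742 normalized counts in control and 526 in Atg5-KD, so that the level fell by 29.1%, with a 95% interval of the change from -40.2% to -16.0%. The authors' deposited table gave Mrpl4 a log2 fold change of -0.50 ± 0.13 (SE) with a Wald adjusted p of 0.000884. Mrpl4 (ENSMUSG00000003299.10) lies on chromosome 9 from 21002738 to 21008839 of GRCm38, on the plus strand.

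Mrpl37, a large subunit protein found in mitochondria and not in bacteria, was the other member called. Its estimated means were 755 normalized counts in control and 611 in Atg5-KD, and the authors' deposited table gave it -0.30 ± 0.11 (SE) in log2 units with a Wald adjusted p of 0.0311. Mrpl37 (ENSMUSG00000028622.11) lies on chromosome 4 from 107055874 to 107066868, on the minus strand. With the trend of fold change with GC content and exon length removed, neither gene was called, and Mrpl4 stood at -0.23 and Mrpl37 at -0.17 (Benjamini-Hochberg adjusted p = 0.242 and 0.386). That setting called 13.4% of the 14680 tested genes with a transcript sequence. Larger changes than that of Mrpl4 were then those of Mrps14 at -0.33, Mrpl17 at -0.31 and Mrpl40 at 0.30, among others.

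The next large subunit members by p-value did not pass, and Mrps31 of the small subunit, which was above 0, ranked between Mrpl14 and Mrpl10. Mrpl12, which sits on the stalk that engages the translation factors, had estimated means of 820 and 680 normalized counts in control and Atg5-KD. The authors' deposited table gave Mrpl12 -0.27 ± 0.11 (SE) in log2 units, with a Wald adjusted p of 0.0614. Mrpl14 stood at -0.36 ± 0.15 (SE) (Wald adjusted p = 0.0647) in the authors' deposited table, with estimated means of 483 and 377. Mrpl10, which anchors Mrpl12 to the ribosome, stood at -0.23 ± 0.11 (SE) (Wald adjusted p = 0.116) and Mrpl28 at -0.28 ± 0.14 (SE) (Wald adjusted p = 0.143) in the authors' deposited table. Mrpl58, a peptidyl-tRNA hydrolase that rescues stalled ribosomes and is also a structural protein, stood at -0.28 ± 0.15 (SE) (Wald adjusted p = 0.189) in the authors' deposited table.

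Above 0 in the large subunit, Mrpl35 stood at 0.30 ± 0.16 (SE), Mrpl47 at 0.20 ± 0.19 (SE), Mrpl40 at 0.18 ± 0.13 (SE) and Mrpl51 at 0.16 ± 0.13 (SE) in the authors' deposited table, and none passed the test. The large subunit members with the highest base means, not divided by length, were Mrpl38 at -0.16, Mrpl10, Mrpl13 at -0.11 and Mrpl33 at 0.14 in the authors' deposited table. Over the 49 large subunit genes the median was -0.06, the middle range from the first to the third quartile was -0.16 to 0.06, and 31 lay below 0. Of them 2 were called lower (4.08%) and 0 higher.

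In the small subunit 0 of 29 genes were called in the authors' deposited table, and 1 gene, Mrps31, had an unadjusted Wald p under 0.05. Mrps31, a protein found only in mitochondrial ribosomes, had estimated means of 327 normalized counts in control and 411 in Atg5-KD. The authors' deposited table gave Mrps31 0.33 ± 0.15 (SE) in log2 units, the largest value above 0 of any member (Wald adjusted p = 0.102). The median of the small subunit was -0.05 with a quartile range of -0.09 to 0.03, and 21 of 29 lay below 0. With the GC and length trend removed 15 of these 29 lay below 0 and 14 above it.

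The other small subunit genes lay within -0.25 and 0.22. Mrps26 at -0.25, Mrps12, a protein of the decoding site, at -0.20, Mrps6 at -0.17 and Mrps34 at -0.13 were lowest in the authors' deposited table. Mrps22 at 0.22, Mrps23 at 0.13 and Mrps18b at 0.10 followed Mrps31 at the upper end in the authors' deposited table. Mrps34 at 803, Mrps30 at 755, Mrps23 at 630 and Mrps2 at 604 had the highest base means of this subunit, and Mrps28 at 214 and Mrps6 at 273 the lowest, in the authors' deposited table. Mrps2 stood at -0.10 and Mrps28 at -0.11 in the authors' deposited table.

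Symbols and structure disagree for a few members. Mrps30 and Mrps18a are named for the small subunit but lie in the large subunit of the mammalian mitochondrial ribosome, and Mrps36 is now known as a component of the 2-oxoglutarate dehydrogenase complex. In the authors' deposited table they stood, in log2 units, at -0.07 ± 0.11 (SE), -0.02 ± 0.14 (SE) and -0.01 ± 0.15 (SE). Placed by structure, 2 of 51 large subunit genes and 0 of 26 small subunit genes were called, with medians of -0.06 for each.

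**Figure D2:**
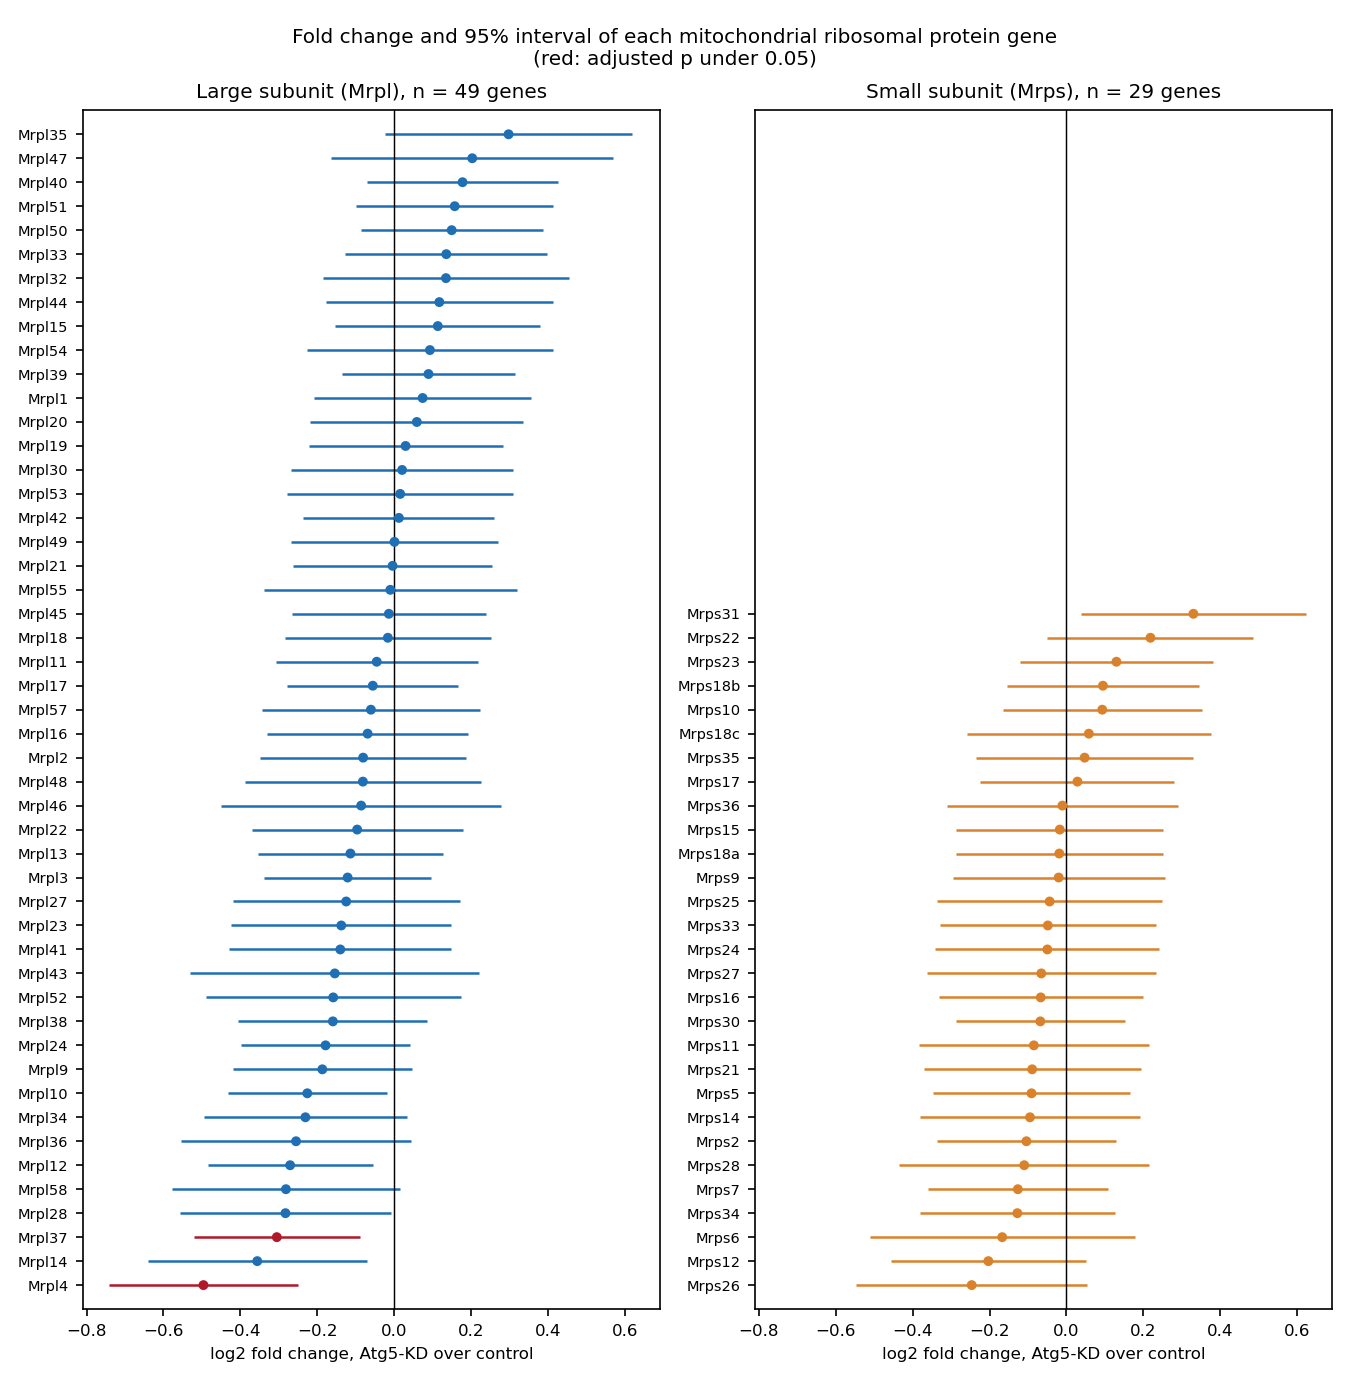
Log2 fold change of Atg5-KD over control (points) with its 95% interval (lines) for each member, ordered within the large (left) and the small subunit (right), with called genes in red. Mrpl4 at -0.50 and Mrpl37 at -0.30 are the called genes, and Mrps31 at 0.33 is the highest.

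The intervals bound how far the members could have moved on the deposited scale. For 74 of 78 members the 95% interval lay wholly within a 1.5-fold change in either direction, and for all 78 it lay within a 2-fold change. The lowest bound was -0.74, for Mrpl4, and the highest 0.62, for Mrps31. Given the largest p called in the authors' deposited table, 0.0104, a member needed a log2 fold change of 0.27 to 0.49, depending on its standard error, to be called. Smaller estimates could not be called, and true differences of that size are not excluded.

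**Figure D3:**
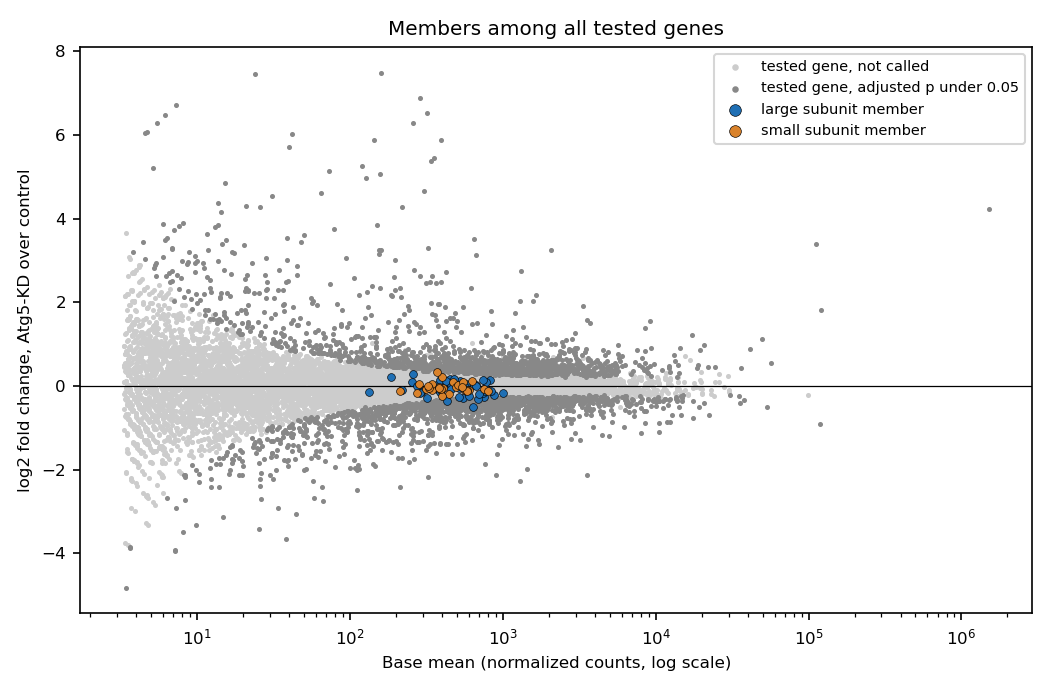
Log2 fold change against base mean (log axis) for the 14835 tested genes in grey, darker where the adjusted p was under 0.05, with large subunit members in blue and small subunit members in orange. The members form a narrow group between base means of 132 and 999.7 and log2 fold changes of -0.50 and 0.33.

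Classes of member proteins were compared by their counts. Large subunit genes with a bacterial homologue had a median of -0.07 over 30 genes and those found only in mitochondria -0.01 over 19, with 1 gene called lower in each (Mrpl4 and Mrpl37) in the authors' deposited table. Subunits were taken by symbol here, with Mrps36 left out. In the small subunit the medians were -0.08 over 18 genes with a homologue and -0.05 over 10 without, and 0 were called. The 4 proteins listed for the stalk region (Mrpl10, Mrpl11, Mrpl12 and Mrpl53) had a median of -0.14, with 0 called. The 6 listed for the central protuberance and the 6 listed for the exit tunnel had -0.08 each, with 0 called in each. Mrpl58, at -0.28, was in none of these lists, which may be incomplete. The differences between classes were not tested.

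Fold changes of members varied with the base composition of their transcripts. Across the 78 genes, which share the same libraries, Spearman's rho between GC content and log2 fold change was -0.47 and Pearson's r was -0.50. Across the 14680 tested genes with a transcript sequence they were -0.37 and -0.23. In the 26 members of lowest GC content (39.6% to 47.5%) the median log2 fold change was 0.02 and 12 lay below 0. In the 26 of highest GC content (52.6% to 60.6%) it was -0.10 and 22 lay below 0. Mrpl4 has 60.1% GC, Mrpl14 59.4% and Mrpl37 55.3%, while Mrps31 has 44.2%. Other members stood apart from this relation, among them Mrpl54 with 60.4% GC at 0.09 and Mrps14, of lowest GC content at 39.6%, at -0.09 in the authors' deposited table.

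**Figure D4:**
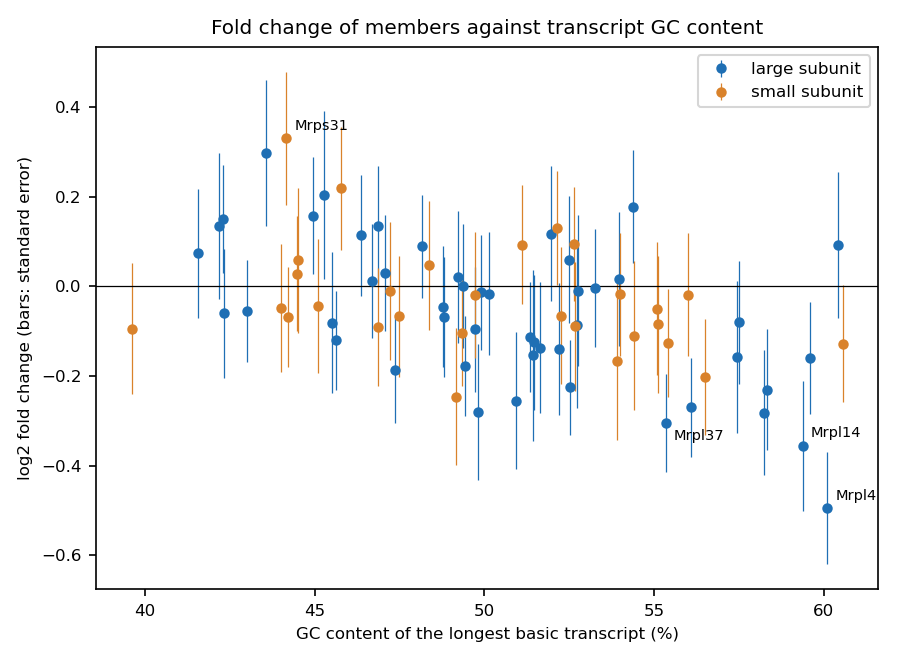
Log2 fold change (vertical axis, bars are standard errors) against GC content of the longest transcript in percent (horizontal axis) for the 78 members, large subunit in blue and small subunit in orange. Values fall from left to right, with Mrps31 at 44.2% GC and 0.33 and Mrpl4 at 60.1% GC and -0.50 near opposite ends.

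The scale of the table also bears on the direction. When log2 fold changes were shifted by -0.30, so that the estimated total of all rows, Rn45s included, was equal in both groups, 77 of 78 members lay below 0, against 78.7% of all tested genes, and 44 of 78 members were lower and 0 higher (27 of the large and 17 of the small subunit). That shift called 42.3% of all tested genes, 38.7% lower and 3.60% higher, and medians became -0.36 for the large subunit and -0.35 for the small. Rn45s alone had an estimated 151960 normalized counts in control and 2867900 in Atg5-KD, of totals of 13031000 and 16032000. Most of the shift therefore came from this 1 row, and a shift without it was not run. The members' medians relative to that of all tested genes do not change under a constant shift.

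Other genes of mitochondrial translation were drawn from fixed lists. The name is used broadly here, since it takes in 23 genes of mitochondrial DNA expression and 10 nuclear regulators. Of 100 tested, 7 were called by the authors' deposited table (7%), 4 higher and 3 lower, against 20.9% of all tested genes. Of these calls 2 were among the genes of mitochondrial DNA expression and 2 among the nuclear regulators. Ribosomal subunits with other symbols had 0 of 5 called. The most abundant were Ptcd3, a small subunit protein, at 0.25 ± 0.10 (SE) (Wald adjusted p = 0.0511, and 0.0431 over rows with a base mean of at least 50) and Dap3, a GTP-binding protein of the small subunit, at -0.14 ± 0.12 (SE) (Wald adjusted p = 0.448) in the authors' deposited table.

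Among 27 assembly and rRNA-modifying factors 1 was lower and 0 higher. It was Rbfa, which binds the maturing small subunit, with estimated means of 429 normalized counts in control and 330 in Atg5-KD. The authors' deposited table gave Rbfa -0.38 ± 0.13 (SE) in log2 units, with a Wald adjusted p of 0.0227. Without the GC and length trend Rbfa stood at -0.14 and was not called (Benjamini-Hochberg adjusted p = 0.586).

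Of 18 translation factors 1 was higher, Gfm2, which with the recycling factor splits the ribosome after termination. Its estimated means were 565 and 719 normalized counts in control and Atg5-KD, and it stood at 0.35 ± 0.11 (SE) in log2 units (Wald adjusted p = 0.0104) in the authors' deposited table. Without the GC and length trend Gfm2 stood at 0.28 (Benjamini-Hochberg adjusted p = 0.0639), and scaled to all reads at 0.05 (Benjamini-Hochberg adjusted p = 0.753).

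Of 17 mitochondrial tRNA synthetases 1 was called. Lars2, the leucyl-tRNA synthetase, had a log2 fold change of 3.40 ± 0.27 (SE) (Wald adjusted p = 4.52e-34) in the authors' deposited table. Its base mean was 112180 normalized counts, while the next highest synthetase, Iars2, had 1286.5 and stood at 0.13 in the authors' deposited table. The ribosomal RNA locus Rn45s stood at 4.24 ± 0.32 (SE) in the authors' deposited table. Whether the reads counted for Lars2 came from its mRNA or from ribosomal RNA was not tested. The other 16 synthetases lay between -0.22 and 0.30.

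Among 23 genes of mitochondrial DNA expression, Pnpt1, an RNA-degrading enzyme that interferon is known to induce, was higher at 0.66 ± 0.11 (SE) (Wald adjusted p = 5.97e-08) in the authors' deposited table. Hsd17b10, a dehydrogenase that is also a subunit of mitochondrial RNase P, was lower at -0.45 ± 0.11 (SE) (Wald adjusted p = 0.000644) in the authors' deposited table. Both calls held with the GC and length trend removed, at 0.48 and -0.41 (Benjamini-Hochberg adjusted p = 0.000239 and 0.0032).

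Nuclear regulators were represented by 10 tested genes, of which 2 were called (20%), against 20.9% of all tested genes. Gabpa was higher at 0.37 ± 0.11 (SE) (Wald adjusted p = 0.00474) and Myc lower at -0.25 ± 0.09 (SE) (Wald adjusted p = 0.0398) in the authors' deposited table. Nrf1 stood at 0.02 ± 0.12 (SE) and Yy1 at 0.20 ± 0.10 (SE) in the authors' deposited table, and neither passed the test. Without the GC and length trend neither Gabpa, at 0.15, nor Myc, at -0.15, was called (Benjamini-Hochberg adjusted p = 0.411 and 0.329). Scaled to all reads Gabpa stood at 0.07 (Benjamini-Hochberg adjusted p = 0.644), and adjusted over every row with a p-value Myc missed the threshold (Benjamini-Hochberg adjusted p = 0.0515).

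**Figure D5:**
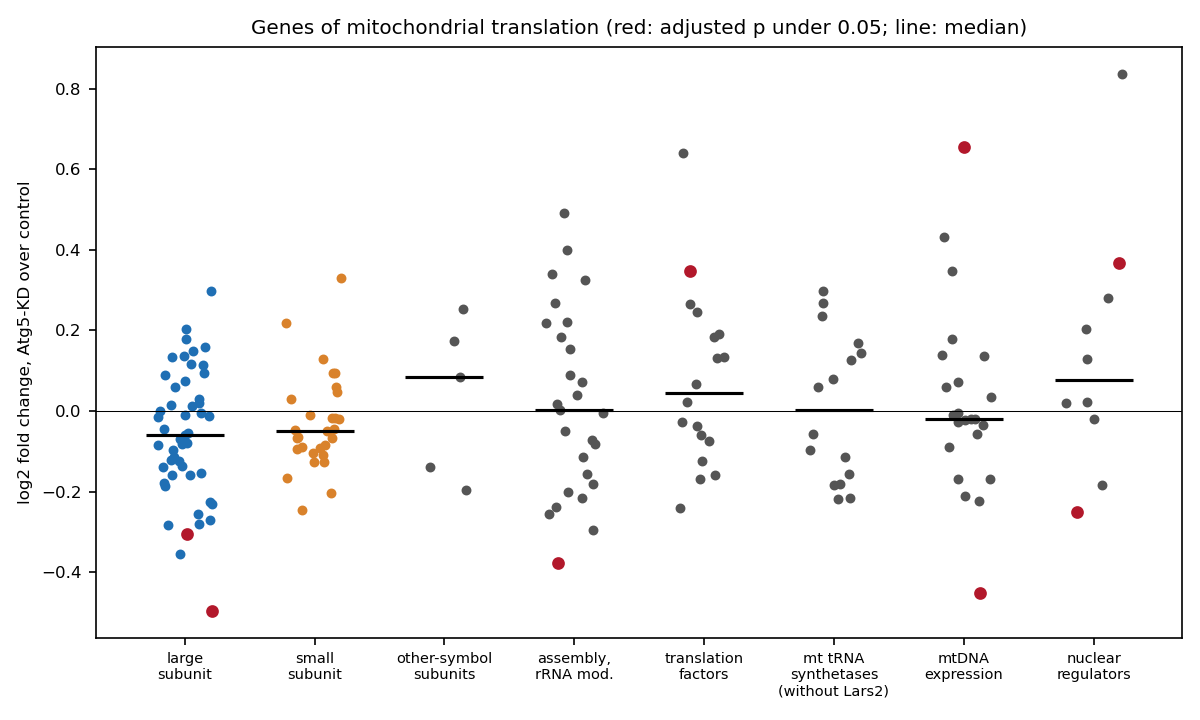
Log2 fold change of each gene (points, called genes in red) with the median of each list (line), for the 2 subunits and 6 lists of other genes of mitochondrial translation. Lars2, at 3.40, lies outside the plotted range and is left out of the synthetases, and the called genes are Mrpl4, Mrpl37, Rbfa, Gfm2, Pnpt1, Hsd17b10, Gabpa and Myc.

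The members stood beside 2 related groups chosen by symbol. Of 80 cytosolic ribosomal protein genes 25 were lower and 0 higher (31.2%) by the authors' deposited table, with a median log2 fold change of -0.20. Of all tested genes 10.5% were lower and 10.4% higher. Of 77 nuclear-encoded subunits of the respiratory chain and ATP synthase 0 were called, with a median of -0.09. The members, at 2 of 78 and -0.06, lay nearer to the respiratory chain subunits than to the cytosolic ribosome on both values, and the differences between groups were not tested. Median base means were 5997 for the cytosolic ribosome, 1035 for the respiratory chain subunits and 466 for the members. Their median standard errors were 0.119, 0.128 and 0.138, so a change of a given size was not equally likely to be called in each group.

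Some counts may be shared with other genes. In GENCODE M21, exons of 17 members overlap exons of another protein-coding gene, 15 of them on the opposite strand, and no source used here gives the strandedness of the counting. The share of a member's exons that overlap was 58.2% for Mrps25 with Nr2c2, 39.2% for Mrpl19 with Gcfc2 and 38.2% for Mrpl24 with Rrnad1, and all of Mrpl53 lies within the exons of Gm42688. With genes of any type included, 26 members overlap, among them Mrps18b, with 59.1% of its exons shared with the antisense gene Gm16279. Values of overlapping members are uncertain, and the share of their counts affected was not measured. Neither Mrpl4 nor Mrpl37 overlaps exons of another gene there.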

How the data were processed

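RNA of 6 libraries, 3 control and 3 Atg5-KD, was compared in 1 table. Tools listed in the submitters' processing notes, without a role, are DESeq2 1.30.1, StringTie 2.1.4, featureCounts 1.6.2 and STAR, and the build is mm10. Per the file headers the authors deposited a base mean (a signal, the mean of counts divided by size factors), a log2 fold change with its standard error, a Wald statistic (a score), a p-value and an adjusted p-value. 0 columns hold values of a library, so the planned edgeR and DESeq2 fits on counts could not be run, and library depth was not analysed here. The statistic, p-value and Benjamini-Hochberg adjustment were recomputed, and 0 rows differed at a tolerance of 1e-06.

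A gene was called at an adjusted p under 0.05 over all 14835 tested rows. Group means were estimated from base mean and fold change with equal group sizes. Intervals are 95% normal intervals (1.96 standard errors). Positions, exon lengths and GC content came from GENCODE M21 and matched 78 of 78 members and 99.0% of tested genes. The trend in GC content, then in exon length, was interpolated between medians of 20 bins and subtracted. The subtraction was also run on simulated data, and that outcome is not given here. Deposited standard errors were kept, and a true difference that follows GC content or length would be subtracted as well.

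Named genes are all called members, the 4 highest base means, 4 largest rises and 4 largest falls and 2 lowest base means of each subunit, Mrps30, Mrps18a and Mrps36, Atg5, and called genes of the other lists or, without one, the 2 of highest base mean. Others were named after their values were seen. Members and lists were chosen with earlier results of these data known. Calculations used Python 3.11.15, pandas and SciPy.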

Additional observations from a re-analysis of the deposited data

How the results depend on the processing

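Over the members, 2 genes were called as deposited, 4 at an adjusted p under 0.1 (Mrpl12 and Mrpl14 added), 1 under 0.01 (Mrpl4), 44 when scaled to all reads and 1 with the GC and length trend removed. That 1 was Mrpl17, at -0.31 (Benjamini-Hochberg adjusted p = 0.0476), which had -0.06 as deposited and has an exon length of 7605 bases. The large subunit had the same counts except 27 when scaled to all reads, and the small subunit had 17 there and 0 in every other setting run. Medians when scaled to all reads were -0.3592 for the large and -0.3486 for the small subunit. Adjusting over every row with a p-value or over rows with a base mean of at least 50, and centring on the median, left Mrpl4 and Mrpl37 as the called members. For other genes of mitochondrial translation the count of 7 became 14 under 0.1, 4 under 0.01 and 37 when scaled to all reads, and for all tested genes 3100 became 2056 under 0.01, 6269 when scaled and 1971 with the trend removed. Atg5 was called when scaled, at -0.36 (Benjamini-Hochberg adjusted p = 0.0269), a setting that called 38.7% of all tested genes lower. That value is the deposited -0.06 with the constant shift of -0.30, so it gives no check of the knockdown. Scaled to all reads 25 of 78 members turned from above to below 0, and with the trend removed 8 turned to below and 14 to above it (46 then below and 32 above). Among genes named by the fixed rule, signs turned when scaled for Mrpl33 (-0.163), Mrpl35 (-0.001), Mrpl40 (-0.1207), Mrpl47 (-0.0955), Mrpl51 (-0.1411), Mrps18b (-0.204), Mrps22 (-0.0803), Mrps23 (-0.1688) and Ptcd3 (-0.0448), and with the trend removed for Mrpl33 (-0.0267), Mrpl38 (0.0854), Mrps18a (0.1271) and Mrps34 (0.1156), none of them called in either. Beyond the constant shift of the scaling, the cause was not tested.

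The titles number the libraries 2, 3 and 4 in each group, and whether equal numbers mark pairs is not known here. No paired analysis was possible because the table holds no values of a library. Because no values of a library were given, leaving out each replicate and count models were not run.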
